A study of Danio rerio with 2 samples.

Results

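The embryonic globin genes described here are hbae1.3, hbae3 and hbz, which encode alpha-type chains, and hbbe1.1, hbbe1.2, hbbe1.3 and hbbe3, which encode beta-type chains. They were chosen by name, with earlier results of these data known. They are 7 of the 16 hemoglobin gene entries and of the 25743 genes in the count tables. Their counts were read in every barcode that held at least 2500 unique molecular identifiers (UMIs), over 200 but no more than 3500 detected genes, and mitochondrial counts of 5% or less.

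Single-cell RNA-seq had been carried out on GFP-positive cells sorted from zebrafish embryos at the 20-somite stage. The aim was to follow vascular and blood progenitors with and without the transcription factor etv2. The study describes etv2 as needed for vascular endothelial and myeloid cells, and reports a higher share of red blood cells in homozygous embryos. One library came from pooled embryos homozygous for etv2ci32Gt and the other from pooled embryos heterozygous for it, both in a UAS:GFP background. In this gene trap a gal4 sequence with a poly(A) signal interrupts the etv2 coding sequence, so that gal4 turns on UAS:GFP where etv2 is transcribed. Every embryo thus carried at least 1 trapped allele, no wild-type library was part of the comparison, and only cells that had made GFP were collected. With 1 library per genotype no difference between genotypes has a replicate check, no p-value was computed, and the spread between cells is not a replicate error.

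Hemoglobin is built of alpha-type and beta-type globin chains in equal number, each holding a heme group that binds oxygen. Zebrafish, like other vertebrates, carry several copies of each type and switch between them during life: the first, primitive wave of red blood cells uses embryonic copies, and adult copies take over later. In contrast to mammals, zebrafish keep alpha and beta genes interleaved in the same cluster. By RefSeq gene order, hbbe1.1, hbbe1.2, hbbe1.3, hbae1.3 and hbae3 stand in the major cluster, which also holds the adult genes, whereas hbz and hbbe3 are neighbours in a separate minor cluster together with hbbe2 and hbae5. The gene that the count tables call hbz is named hbae4 in RefSeq. hbbe1.1, hbbe1.2 and hbbe1.3 are copies of the same gene, as are hbae1.3 and the entries listed as hbae1 and HBZ. The split of counts within each family therefore depends on how the counting resolved near-identical reads and is uncertain. The sum over a family does not depend on how counted reads are split among its members, but reads that members share may be missing from it.

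The filters kept 473 cells of the homozygous library with 6277215 UMIs (median 13079 per cell) and 1608 cells of the heterozygous library with 16913592 UMIs (median 10036.5). No barcode occurred in both sets. etv2, the trapped gene, had 95 counts in the homozygous and 4908 counts in the heterozygous cells. Cells were clustered without any hemoglobin gene, and clusters were named from marker lists, most of which the study had selected on these libraries. Although the labels call the sorted cells endothelial, endothelial-like clusters held only 2 homozygous and 378 heterozygous cells. The red blood cell-like (RBC-like) cluster held 125 homozygous cells (26.4% of the kept cells, median 18429 UMIs) and 258 heterozygous cells (16.0%, median 14413 UMIs), and all 14 non-globin erythroid markers in the tables were enriched in it.

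The 7 globins were concentrated in the RBC-like cells. These cells held 89.9% of all UMIs of the 7 genes in the homozygous library and 87.9% in the heterozygous library. Their summed level was 46107 counts per 1000000 UMIs (CPM; 95% interval, 45823 to 46392) in homozygous and 32630 CPM (32440 to 32820) in heterozygous RBC-like cells, that is, 4.61% and 3.26% of all UMIs. In the other named classes together it was 448 CPM (424 to 473) in homozygous and 472 CPM (459 to 485) in heterozygous cells. All intervals cover counting error only. The RBC-like level was thus 103-fold that of the other named classes in the homozygous library (97.3 to 109) and 69.1-fold in the heterozygous library (67.2 to 71.1). Of the 7 globins, 7 were at least 10-fold higher in RBC-like cells in each library. Among all genes with at least 50 counts, 1.97% reached that fold in the homozygous and 0.845% in the heterozygous library. The study lists hbae1.3, hbae3, hbbe1.1, hbbe1.2, hbbe1.3 and hbbe3 as top red blood cell markers, found on these same libraries. Their enrichment was thus known in advance and is no independent result. In the heterozygous library the lower fold rested partly on 2 cells, 1 EPC-like (vascular endothelial progenitor-like) and 1 epidermis-like, that each had over 10000 CPM of globin. Without them the heterozygous fold was 85.5 (82.9 to 88.3). The folds also depended on the clustering: with the libraries clustered separately they were 13.9 in the homozygous and 28.1 in the heterozygous library, and 49 and 216 cells of a cluster that could not be named then joined other named classes. The order of the libraries in this fold thus turned with the clustering.

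**Figure D1:**
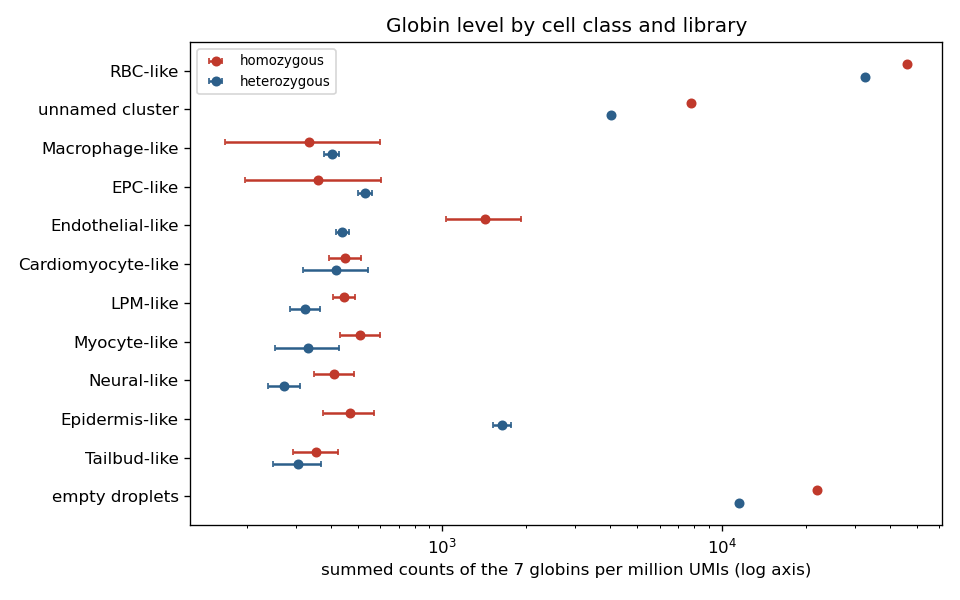
Summed counts of the 7 globins per 1000000 UMIs (log axis) in each cell class and in empty droplets, with homozygous above heterozygous points and exact 95% Poisson intervals. RBC-like cells stand at 46107 and 32630 CPM, the unnamed cluster at 7776 and 4025 CPM, and the other classes lie between 272 and 1641 CPM.

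Globin counts were also found outside cells. Barcodes with 1 to 100 UMIs, taken as empty droplets, carried 22032 CPM of the 7 globins in the homozygous and 11568 CPM in the heterozygous library. In neural-like cells, which are no known source of globin, at least 1 UMI of any of the 7 genes was found in 95.7% of 23 homozygous cells (median 15126 UMIs) and in 90.1% of 81 heterozygous cells (median 10142 UMIs), at 412 and 272 CPM. After thinning to 5157 UMIs per cell, with cells below that depth left out, the shares were 86.4% and 76.8%. Detection of a globin UMI therefore did not separate cell types in these libraries, whereas the pooled level differed between RBC-like cells and the other named classes. Single cells overlapped in level. RBC-like cells went down to 1486 CPM in the homozygous and 362 CPM in the heterozygous library, and cells of other named classes reached 2021 and 30654 CPM. The minor members behaved differently from the abundant ones: hbz was seen in 4.35% of homozygous and 3.70% of heterozygous neural-like cells, but in 92.8% of homozygous and 86.8% of heterozygous RBC-like cells (83.1% and 79.5% after thinning).

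Each copy was then followed in single RBC-like cells. UMI counts mark the 3′ end of captured transcripts and were not divided by transcript length, so levels of different genes are compared here as counts. The alpha-type gene hbae1.3 reached 9658 CPM over all homozygous and 6498 CPM over all heterozygous RBC-like cells. In single cells its level was between 114 and 26418 CPM with a median of 8674 CPM in homozygous cells, and between 0 and 36275 CPM with a median of 4268 CPM in heterozygous cells. The second abundant alpha gene, hbae3, reached 8255 CPM in homozygous and 6141 CPM in heterozygous RBC-like cells, with medians over cells of 7096 and 4018 CPM. hbz, the alpha gene of the minor cluster, was counted at 559 CPM in homozygous and 508 CPM in heterozygous RBC-like cells. Its medians were 500.4 CPM and 381 CPM, and no single cell exceeded 44 UMIs. hbae1.3 and hbae3 thus supplied nearly all alpha counts, and the ranges of homozygous and heterozygous cells overlapped for all 3 genes.

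Among the beta-type genes, hbbe3 and hbbe1.1 were counted most. hbbe3, the beta gene of the minor cluster, reached 12664 CPM over homozygous and 9366 CPM over heterozygous RBC-like cells, with medians over cells of 10735 and 7082 CPM. hbbe1.1 reached 12388 CPM in homozygous and 7144 CPM in heterozygous RBC-like cells, with medians of 10344 and 4879 CPM. The other copies of the hbbe1 family were lower: hbbe1.2 stood at 962 CPM in homozygous and 819 CPM in heterozygous cells, and hbbe1.3 at 1620 CPM in homozygous and 2154 CPM in heterozygous cells. hbbe1.3 was the only member with a higher summed level in the heterozygous library. Its median over cells was 901 CPM in homozygous and 977 CPM in heterozygous cells. hbbe1.2 had no UMI in 4 homozygous and 42 heterozygous RBC-like cells, and hbbe1.3 had none in 5 homozygous and 27 heterozygous cells, whereas hbae1.3, hbae3, hbbe1.1 and hbbe3 were seen in every homozygous RBC-like cell.

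**Figure D2:**
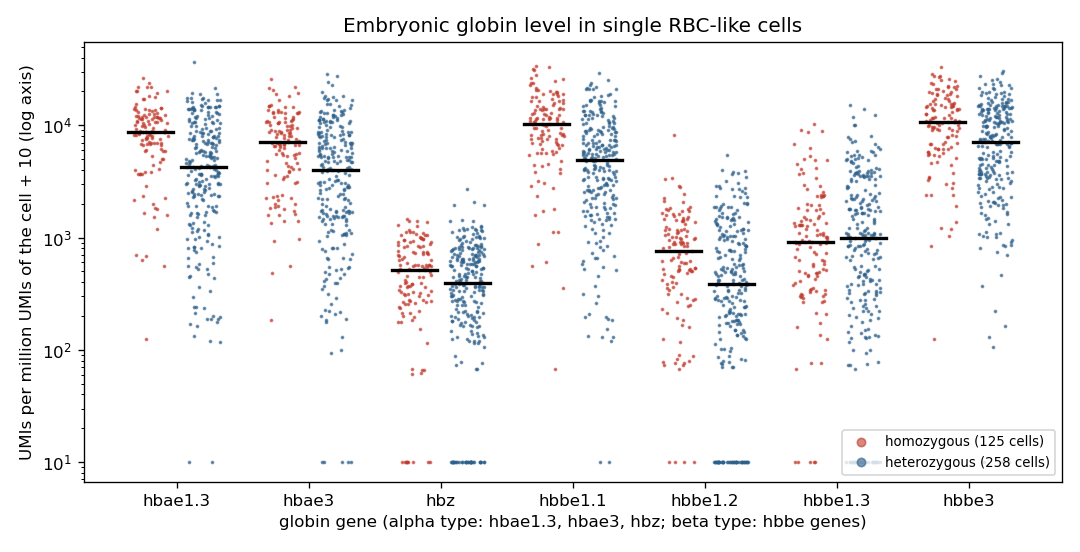
Level of each globin in single RBC-like cells (UMIs per 1000000 UMIs of the cell plus 10, log axis), with homozygous cells left of heterozygous cells, 1 point per cell and the median as a bar. Medians are higher in homozygous cells for each gene except hbbe1.3 (901 against 977 CPM), cells at 10 had no UMI of the gene, and the 2 sets of cells overlap for every gene.

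The balance of alpha to beta counts was first taken over all RBC-like cells. Alpha genes gave 40417 counts and beta genes 60463 counts in homozygous RBC-like cells, a ratio of 0.668. In heterozygous RBC-like cells the counts were 45723 and 67762, a ratio of 0.675. The pooled alpha share of globin counts was 40.1% (39.8 to 40.4) in homozygous and 40.3% (40 to 40.6) in heterozygous cells, and the intervals overlapped. In single cells with at least 50 globin UMIs it ranged between 24.2 and 61.2% with a median of 39.8% over 122 homozygous cells, and between 16.7 and 61.3% with a median of 38.9% over 226 heterozygous cells. The variance of this share over cells was 12.5 times in homozygous and 12.3 times in heterozygous cells that of binomial counting, so cells differed in their alpha share by more than counting error. The minor cluster, that is, hbz and hbbe3, gave 28.7% of globin counts in homozygous and 30.3% in heterozygous RBC-like cells. hbae1.3 made up 52.3% of alpha counts in homozygous cells (51.8 to 52.8) and 49.4% in heterozygous cells (49.0 to 49.9). The largest shift of composition was within the beta genes. hbbe1.1 gave 44.8% of beta counts in homozygous and 36.7% in heterozygous RBC-like cells, while hbbe1.3 gave 5.86% and 11.1%.

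Levels of the copies were positively correlated over RBC-like cells. The Spearman correlation between hbae1.3 and hbae3 was 0.87 over 125 homozygous and 0.85 over 258 heterozygous cells, and between hbae1.3 and hbbe3, which lie in different clusters, 0.76 and 0.85. The pair hbbe1.2 and hbbe1.3 reached 0.74 in homozygous and 0.79 in heterozygous cells. In contrast, hbbe1.1 and hbbe1.3 reached only 0.46 in either library, although both belong to the same family. hbz correlated least with the other copies, at 0.25 to 0.56 in homozygous and 0.45 to 0.62 in heterozygous cells, and its counts per cell were among the lowest. These correlations describe cells that share a library, a depth and a denominator. The summed globin level followed the summed level of the non-globin erythroid markers, at 0.58 in homozygous and 0.75 in heterozygous RBC-like cells, and followed the UMI total of the cell at 0.36 and 0.38.

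Next, the genotypes were compared within RBC-like cells. From these same libraries the study reports alas2, hbae3, hbae1.3 and hbbe1.1 as higher and lmo2 as lower in homozygous red blood cells. These directions were thus known in advance. The study also lists hbae3, hbbe1.1, hbbe3 and hbbe2 as higher in homozygous embryos in separate bulk RNA-seq of embryos at a later stage. That is another measure, since it was not taken on sorted red blood cells. The summed level of the 7 globins was 1.41-fold higher in homozygous than in heterozygous cells (95% interval, 1.40 to 1.43), and alpha and beta genes shared this ratio, at 1.41 (1.39 to 1.42) and 1.42 (1.40 to 1.43). To describe single genes, a level at least 25% higher or at least 20% lower in homozygous cells was taken as the limit. By it 4 of the 7 members were higher in homozygous cells, where 13.7% of all 5016 genes with at least 50 counts were, and 1 member was lower, where 24.5% of all genes were. At 1.5-fold, 1 member was higher and 0 were lower, against 5.62% and 9.99% of all genes. The median ratio was 1.34 over the 7 members and 0.942 over all genes. The highest ratio belonged to hbbe1.1, at 1.73 (1.70 to 1.76), a value exceeded by 2.53% of all genes. hbae1.3 followed at 1.49 (1.46 to 1.51), then hbbe3 at 1.35 (1.33 to 1.37) and hbae3 at 1.34 (1.32 to 1.37). hbbe1.2 at 1.17 (1.11 to 1.24) and hbz at 1.1 (1.02 to 1.18) stayed within the limit. hbbe1.3 was the member that was lower, at 0.752 (0.722 to 0.783). It lay within the limit when cells were weighted equally (0.820), at 1 depth (0.827) and without the 5% of cells with most globin (0.862), whereas hbbe1.2 passed the limit when cells were weighted equally (1.26). When the hbbe1 family was summed, the ratio was 1.48 (1.46 to 1.5). The sum avoids the split among near-identical copies, but reads that the copies share may be missing from it.

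The homozygous RBC-like cells were deeper, and other cell-type markers also differed in them. The 5 EPC markers summed to 960 CPM in homozygous and 1494 CPM in heterozygous RBC-like cells, with none at 0 counts. Most of this sum was tal1 and lmo2, at 450 and 499 CPM in homozygous and 580 and 853 CPM in heterozygous cells. Both are given again below among the erythroid transcription factors. Of the same markers etv2 had 2 counts in homozygous and 39 in heterozygous RBC-like cells. The 12 endothelial markers summed to 155 CPM in homozygous cells, where cdh5 and cldn5b were at 0 counts, and to 350 CPM in heterozygous cells, where none was. The 9 macrophage markers summed to 364 CPM in homozygous cells, with 4 at 0 counts, and to 431 CPM in heterozygous cells. The 14 erythroid markers summed to 6147 CPM in homozygous and 6190 CPM in heterozygous cells, a sum that a few abundant markers carry. Of the 13 that reached 50 counts, 7 were higher in homozygous cells by the limit above and 1, rfesd (0.567), was lower. Of all genes 13.7% were higher and 24.5% lower. The median ratio of these markers was 1.33, beside 1.34 for the globins and 0.942 for all genes. The part of these markers in the globin ratios was not tested. With RBC-like cells of at least 5603 UMIs thinned to that number the summed globin ratio was 1.48. This used 118 homozygous and 227 heterozygous cells and left out 7 and 31. Thinning also weights cells equally, and the mean over cells without thinning gave 1.48 as well. The part of depth in the ratio was therefore not told apart by it.

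The ratio between genotypes differed along the level of the erythroid markers. RBC-like cells of both libraries were ordered by their summed non-globin erythroid markers and cut into 3 bands of nearly equal number. In the low band (1233 to 4931 CPM of markers) the 7 globins reached 29339 CPM in 41 homozygous and 11544 CPM in 87 heterozygous cells, a ratio of 2.54 (2.48 to 2.60). In the middle band (4932 to 6797 CPM) they reached 45137 CPM in 44 homozygous and 29970 CPM in 83 heterozygous cells, a ratio of 1.51 (1.48 to 1.53). In the high band (6808 to 12527 CPM) they reached 58900 CPM in 40 homozygous and 49193 CPM in 88 heterozygous cells, a ratio of 1.2 (1.18 to 1.21). Globin thus increased with the erythroid markers in either library, and the 2 libraries were closest where the markers were highest. Within the low band homozygous cells also had the higher marker level, 3881 against 3491 CPM in heterozygous cells, the greater depth, with medians of 15395 and 11261 UMIs, and fewer endothelial marker counts, 192 against 602 CPM. Homozygous cells were also deeper in the middle band (medians of 19351 and 14757 UMIs) and the high band (20809 and 16525 UMIs). Their endothelial markers were lower there too, at 142 against 297 CPM and 144 against 223 CPM. The erythroid marker level was 5905 against 5836 CPM in the middle band. In the high band it was lower in homozygous cells, at 7992 against 8320 CPM. The part of these differences in the ratios of the bands was not tested. The pooled alpha share differed between genotypes in opposite directions in the middle and high bands. It was 38.3% (37.6 to 39.1) in homozygous and 37.4% (36.5 to 38.4) in heterozygous cells of the low band, 40.8% (40.3 to 41.3) and 37.8% (37.2 to 38.3) in the middle band, and 40.1% (39.6 to 40.5) and 42.0% (41.7 to 42.4) in the high band. The similar shares over all RBC-like cells thus covered a higher pooled homozygous share in the middle and a lower one in the high band. These intervals cover counting error only. Over RBC-like cells the variance of the alpha share was 12.5 times in homozygous and 12.3 times in heterozygous cells that of binomial counting. The order of the genotypes within a band is therefore uncertain. The bands are ranges of a continuous score and not cell types.

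The single copies differed in this respect. hbae1.3 had ratios of 2.87, 1.67 and 1.22 from the low to the high band, and hbae3 had ratios of 2.44, 1.64 and 1.07. For hbbe1.1 the ratio remained clearly above 1 in each band, at 2.73 (2.61 to 2.87), 1.71 (1.66 to 1.76) and 1.56 (1.52 to 1.60). hbbe3 stood at 2.61, 1.28 and 1.2. hbz was higher in homozygous cells in the low band, at 1.79 (1.5 to 2.13), and close to 1 in the others, at 1.02 (0.896 to 1.16) and 0.990 (0.890 to 1.1). For hbbe1.2 the direction turned in the high band, where the ratio was 0.899 (0.830 to 0.974). hbbe1.3 was lower in homozygous cells in the high band alone, at 0.599 (0.567 to 0.633), and had ratios of 1.15 (1.02 to 1.3) and 1.03 (0.961 to 1.11) in the low and middle bands.

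**Figure D3:**
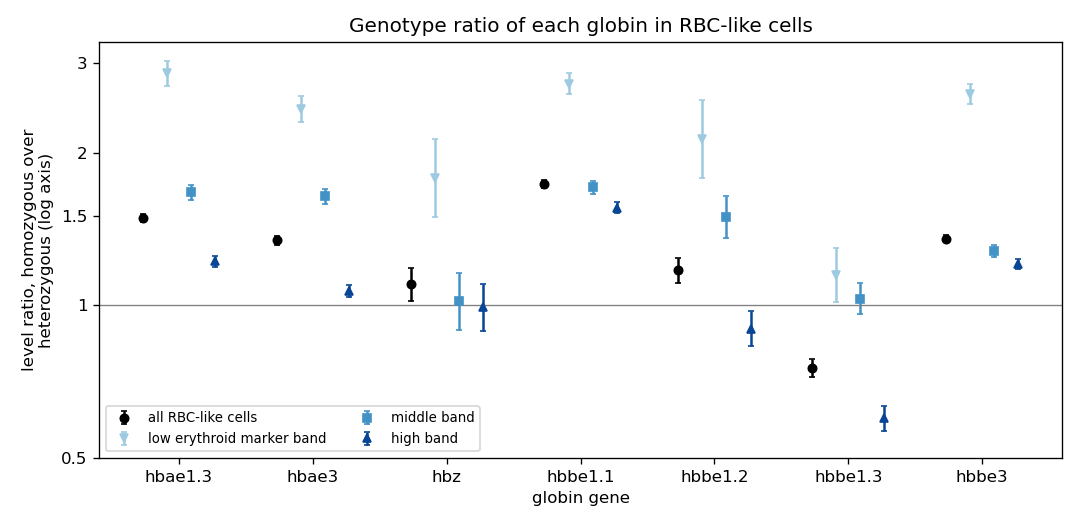
Ratio of the level of each globin in homozygous over heterozygous RBC-like cells (log axis), for all cells and for 3 bands of the summed non-globin erythroid markers, with exact 95% intervals from the 2 counts. Over all cells the ratios run between 0.752 for hbbe1.3 and 1.73 for hbbe1.1, and for each gene the low band has the highest and the high band the lowest of the 3 band values.

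The copy that went against the others, hbbe1.3, was therefore examined in single cells, as its share of the counts of hbbe1.1 and hbbe1.3 together. Summed over RBC-like cells the share was 11.6% (11.2 to 11.9) in the homozygous and 23.2% (22.7 to 23.6) in the heterozygous library. The share was then taken in the 117 homozygous and 190 heterozygous RBC-like cells with at least 30 such counts. Shares under 10% were found in 81 homozygous and 66 heterozygous cells, and shares between 25 and 50% in 20 homozygous and 70 heterozygous cells. In steps of 5 percentage points the step from 15 to 20% held 4 homozygous and 7 heterozygous cells and the step from 20 to 25% held 2 and 17, so that no clear gap separated lower from higher shares. Shares of 70% or more were seen in 0 of 117 homozygous cells. With 3 cells taken as the upper limit of a count of 0, this allows up to 2.56%, which is not an exact interval. Such shares were seen in 7 heterozygous cells (3.68%, 1.49 to 7.44) and lay between 74.4 and 95.8%. The variance of the share over cells was 31.5 times in homozygous and 34.4 times in heterozygous cells that of binomial counting, the highest among the copy shares examined.

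**Figure D4:**
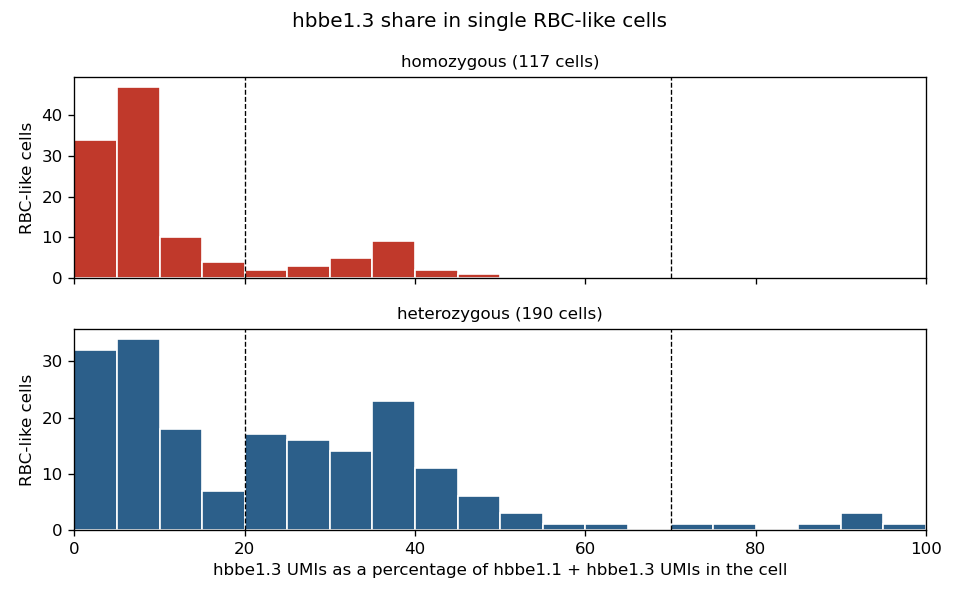
Number of RBC-like cells by their hbbe1.3 share of hbbe1.1 plus hbbe1.3 counts, in steps of 5 percentage points, for 117 homozygous (top) and 190 heterozygous cells (bottom). Dashed lines mark 20 and 70%: 95 homozygous and 91 heterozygous cells lie below 20%, 22 and 92 lie between, and 0 and 7 lie at 70% or more.

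With limits of 20 and 70%, which were drawn after the distribution was seen, 95 of 117 homozygous cells (81.2%) and 91 of 190 heterozygous cells (47.9%) were in the low range. The middle range held 22 homozygous cells (18.8%, 12 to 27) and 92 heterozygous cells (48.4%, 41 to 56). The limits cut a continuous share, so they fix much of the level of hbbe1.1 and hbbe1.3 within each range. In all, 18.8% of homozygous and 52.1% of heterozygous cells had a share of 20% or more. With a limit of 25% these were 17.1% and 43.2%, and with a limit of 15% they were 22.2% and 55.8%.

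The pooled sum of the hbbe1 family was lower in the middle than in the low range in homozygous cells. In heterozygous cells it was similar in the low and middle ranges. In homozygous cells it was 15870 CPM (15682 to 16060) in the low and 13939 CPM (13573 to 14313) in the middle range. In heterozygous cells it was 11655 CPM (11478 to 11834) in the low, 11692 CPM (11514 to 11873) in the middle and 13236 CPM (12530 to 13970) in the high range. The high range rests on 7 heterozygous cells, which ranged between 2515 and 21848 CPM. Medians over cells were 13060 CPM in the low and 12707 CPM in the middle range of homozygous cells. In heterozygous cells they were 8974.5, 10342 and 10658 CPM from the low to the high range. The intervals cover counting error only, so the order of the ranges in this sum is uncertain. Of its parts, hbbe1.1 stood at 10132, 6893 and 1196 CPM and hbbe1.3 at 851, 3705 and 9165 CPM in heterozygous cells from the low to the high range, opposite orders that the grouping itself sets. Over all RBC-like cells the levels of these genes were positively correlated, as given above. hbbe1.2, which was not used for the grouping, stood in heterozygous cells at 673, 1095 and 2874 CPM. In the high-range cell with the most UMIs, 31 UMIs of hbbe1.1, 355 of hbbe1.3 and 126 of hbbe1.2 were counted among 23435 UMIs. In homozygous cells hbbe1.2 stood at 1006 CPM in the low and 946 CPM in the middle range. Its medians over homozygous cells went the other way, at 724 CPM in the low and 876 CPM in the middle range. The order of these 2 ranges in hbbe1.2 is therefore uncertain in homozygous cells.

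The alpha genes, also not used for the grouping, followed the ranges in heterozygous cells. hbae1.3 was at 6289, 8319 and 11849 CPM and hbae3 at 5539, 8446 and 10231 CPM there, from the low to the high range, and the alpha share of globin counts was 36.2, 43.4 and 47.6%. In homozygous cells hbae1.3 was at 9886 CPM in the low and 10434 CPM in the middle range, hbae3 at 8671 and 7943 CPM, and the alpha share at 39.8 and 41.2%. The medians of hbae3 over homozygous cells went the other way, at 7354 CPM in the low and 7976 CPM in the middle range. hbbe3 was at 13098 and 13100 CPM in homozygous cells, and at 10077, 10960 and 11979 CPM in heterozygous cells over the same ranges. The alpha genes thus differed more between the ranges in the heterozygous library. The erythroid markers also increased with the range. Their median per cell was 5773 CPM in low-range and 6893 CPM in middle-range homozygous cells, and 6252, 6853 and 7297 CPM in heterozygous cells from the low to the high range. Each library was made from many pooled embryos and no label links a cell to its embryo, so that differences between embryos and differences between cells of an embryo cannot be told apart. Whether reads were divided differently among the near-identical copies was not tested.

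**Figure D5:**
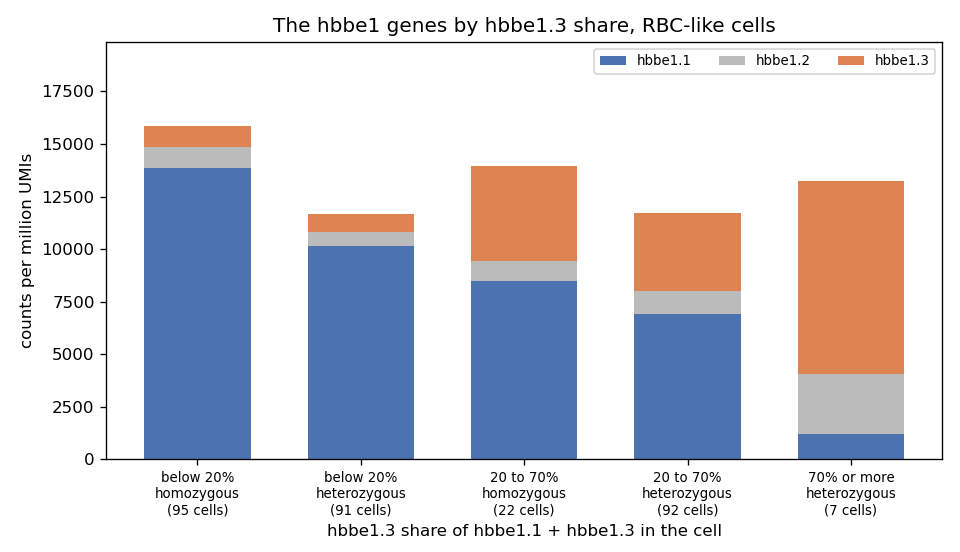
Summed level of hbbe1.1, hbbe1.2 and hbbe1.3 (stacked, counts per 1000000 UMIs, axis from 0) in RBC-like cells grouped by hbbe1.3 share, with homozygous left of heterozygous bars. Bar totals lie between 11655 and 15870 CPM, and the split between hbbe1.1 and hbbe1.3 follows from the grouping, with hbbe1.3 at 9165 CPM in the 7 heterozygous cells at 70% or more.

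Within a range the genotypes were compared for the 5 members that did not define it. In low-range cells the ratios of homozygous over heterozygous cells were 1.57 (1.53 to 1.61) for hbae1.3 and 1.57 (1.52 to 1.61) for hbae3. They were 1.5 (1.38 to 1.62) for hbbe1.2, 1.3 (1.27 to 1.33) for hbbe3 and 1.13 (1.02 to 1.24) for hbz. Of these, hbz stayed within the limit used for single genes above. The share of all genes past that limit was not computed within a range, so these ratios have no background. In middle-range cells hbae1.3 at 1.254 (1.21 to 1.3) passed the limit, and hbbe3 at 1.2 (1.16 to 1.23) was above 1 but within it. Below 1 but within the limit were hbae3 at 0.94 (0.904 to 0.978) and hbbe1.2 at 0.864 (0.770 to 0.969). The interval of hbz at 0.928 (0.794 to 1.08) held 1. The pooled ratios of hbae3 and hbbe1.2 thus lay on different sides of 1 in the 2 ranges. Medians over middle-range cells went the other way for hbae3, at 7976 CPM in homozygous and 7213 CPM in heterozygous cells. For hbbe1.2 these medians were 876 and 910 CPM. The intervals cover counting error only and the middle range held 22 homozygous cells, so the direction of both genes there is uncertain.

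Globin was also present at an intermediate level in 1 cluster that could not be named. It held 101 homozygous and 242 heterozygous cells and had 1 of 14 erythroid markers enriched. Its leading genes, among them adgrg11, atp2b2 and si:ch211-11n16.3, are no erythroid markers. The study lists the last-named gene as the top marker of a cluster that it proposes to hold pro-apoptotic cells. No apoptotic class was among the marker lists used here, so this identity was not tested. The 7 globins were at 7776 CPM in homozygous and 4025 CPM in heterozygous cells of the unnamed cluster. It held 8.96% of all UMIs of these genes in the homozygous and 8.18% in the heterozygous library. Single cells ranged widely, between 0 and 51700 CPM with a median of 1533 CPM in homozygous cells, and between 0 and 62405 CPM with a median of 1515 CPM in heterozygous cells. The level followed the non-globin erythroid markers. With under 600 CPM of markers the cells had 520 CPM of globin in the homozygous and 643 CPM in the heterozygous library, and with 2000 CPM or more they had 12040 and 7071 CPM. Depth moved with the markers, with medians of 3588 and 21980 UMIs in the homozygous and 4380.5 and 20153 UMIs in the heterozygous cells at these ends, and its part was not tested.

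The composition of globin counts in this cluster differed from that of RBC-like cells. Alpha genes gave 31.4% of globin counts (30.5 to 32.3) in its homozygous and 30.3% (29.4 to 31.2) in its heterozygous cells, against 40.1% and 40.3% in RBC-like cells. hbbe1.1 gave 38.5% of globin counts in homozygous and 30.7% in heterozygous cells of the cluster, and 26.9% and 21.9% in RBC-like cells. hbz gave 2.16% in homozygous and 3.51% in heterozygous cells of the cluster, and 1.21% and 1.56% in RBC-like cells. The hbz share was not even over the cluster. It was 1.16, 1.41 and 4.41% in heterozygous cells with under 600, 600 to 2000 and 2000 or more CPM of erythroid markers. In homozygous cells it was 3.33, 1.16 and 2.45%, the first from 120 globin counts. The homozygous cell with the highest globin level held 1691 of the 10049 globin counts of homozygous cells there. Low alpha shares were not particular to this cluster: the other named classes together had 33.7% (31.1 to 36.4) in the homozygous and 37.0% (35.7 to 38.3) in the heterozygous library, and macrophage-like heterozygous cells had 32.3% (29.5 to 35.2). In empty droplets the alpha share was 39.0% in the homozygous and 37.3% in the heterozygous library.

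The other hemoglobin genes were counted at very different levels. hbbe2 and hbae5, the embryonic neighbours of hbz and hbbe3, were counted at 1205 and 296 CPM in homozygous and at 743 and 167 CPM in heterozygous RBC-like cells, with ratios of 1.62 (1.54 to 1.71) and 1.77 (1.58 to 1.98). The adult genes were nearly absent: hbaa1 had 7 homozygous and 1 heterozygous count, hbaa2 had 1 and 14, and hbba2 had 0 of 2187949 and 0 of 3477929 UMIs, which allows up to 1.37 and 0.863 CPM. hbba1 is listed under 2 identifiers, which had 2 homozygous counts and no heterozygous count together. The 2 further hbae1 copies, listed as hbae1 and HBZ, had 26 and 19 homozygous and 10 and 47 heterozygous counts. Of these 9 genes 3 reached the minimum of 50 counts over both libraries, hbbe2 and hbae5, which were higher in homozygous cells, and HBZ, whose ratio was 0.643 (0.356 to 1.12).

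Heme is made in the same cells that make globin, and 12 of 15 genes of heme synthesis and iron transport reached the count minimum in RBC-like cells. By the limit used above, 5 were higher in homozygous cells and 1 was lower, against 13.7% and 24.5% of all genes, and the median ratio was 1.17. Those higher were alas2, which carries out the first step of heme synthesis in red cells (420.0 CPM in homozygous and 269.7 CPM in heterozygous cells, ratio 1.56), urod, ppox and fech, which act at later steps (1.63, 1.64 and 1.66), and slc25a37, the mitochondrial iron importer (1.83, from 53 and 46 counts). fam210b was lower, at 76.8 CPM in homozygous and 149 CPM in heterozygous cells (0.516). cpox, which was counted most in this list, was at 1211 CPM in homozygous and 1102 CPM in heterozygous cells, a ratio of 1.1. In this list alas2, urod, slc25a37, cpox and tfr1a are also among the non-globin erythroid markers above. The same holds for gata1a, klf17, blf and znfl2a among the transcription factors given next. Of these factors tal1 and lmo2 are also among the EPC markers above, so the lists are not independent. Erythroid transcription factors showed no common direction: of 10, 2 were higher and 4 lower, with a median ratio of 0.865. gata1a, the main activator of red cell genes, was at 295 CPM in homozygous and 223 CPM in heterozygous RBC-like cells (1.33), and klf17, a Kruppel-like factor of primitive red cells, at 739 and 763 CPM (0.969). lmo2 and tal1, which early blood and vascular progenitors share, were at 499 and 450.2 CPM in homozygous and at 853 and 579.7 CPM in heterozygous cells (0.584 and 0.777).

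Finally, the genes whose level over all kept cells was most like that of the summed globins were listed by Spearman correlation. Over 1608 heterozygous cells these were klf17 (0.62), cpox (0.60), rfesd (0.59), znfl2a (0.59), cahz (0.58), alas2 (0.55), gfi1aa (0.55), hdr (0.54), gata1a (0.54) and ncs1a (0.51). Of these 10 genes 7 are among the markers that named the RBC-like cluster. Over 473 homozygous cells 5 of the 10 leading genes were shared with that list, and cpox was first at 0.78. Within RBC-like cells the leading genes were others. Over 258 heterozygous RBC-like cells fth1a, prdx2, txn and tmem14ca led, and over 125 homozygous RBC-like cells the same 4 genes led, with txn first. They encode a ferritin subunit, a peroxiredoxin, thioredoxin and a mitochondrial membrane protein, and were found after the values were seen. Cells of a library share its free RNA and depth, so these correlations are a description.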

How the data were processed

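Reads of 2 libraries of a droplet method (10x Chromium), 1 per genotype, were turned into UMI counts by the authors with Cell Ranger 2.0.2 and GRCz10, per the submitters' processing notes. The gene annotation is not given in the sources used here. The deposited values are raw counts per gene and barcode of all barcodes, without cell calling or normalization. As Cell Ranger counts reads that map to 1 gene, reads shared by near-identical globin copies may be missing.

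Barcodes were filtered as stated, all hemoglobin genes were left out, and cells of both libraries were clustered with Seurat 5.3.0 in R 4.3.3 (counts scaled to 10000, 13 components, 30 neighbours, resolution 0.6). A cluster was named where at least 3 and at least 50% of the markers of a class were enriched 2-fold, a rule set after the clusters were seen. The unnamed cluster stayed so. The other named classes are macrophage, EPC, endothelial, lateral plate mesoderm, cardiomyocyte, myocyte, neural, epidermis and tailbud. Scrublet (scanpy 1.11.5) called 1 homozygous and 5 heterozygous cells as doublets, none RBC-like, and they were kept.

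Counts were summed per class and library and divided by 1000000 UMIs (CPM). Intervals are exact at 95% (Poisson, Clopper-Pearson, or conditional on the 2 counts of a ratio). Their computation was checked on data simulated with counting error alone, which does not cover the spread between cells. Libraries hold 7244035 homozygous and 19256969 heterozygous UMIs, and free RNA was estimated at 2.03% and 4.08% of a cell's UMIs. Python 3.11.15, numpy 2.4.6, scipy 1.17.1, pandas 2.3.3 and matplotlib 3.10.9 were used. Members and lists were chosen with earlier results of these data known. Genes given are the members, the other hemoglobin genes (hbegf genes left out), lists of heme, iron and transcription factor genes, and the 10 genes most correlated with globin. The markers hemgn and her4.2.1 did not match. No sequence is shown.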

Additional observations from a re-analysis of the deposited data

How the results depend on the processing

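Of 14 alternatives, 1 left out cells called as doublets, which removed no RBC-like cell and so could change no ratio. The summed globin ratio of 1.41 kept its direction in all 14 alternatives, and 11 moved it past its counting interval. It was 1.43 over UMIs without hemoglobin genes, 1.5 scaled by the median ratio of all genes, 1.48 as a mean over cells, 1.39 with the empty-droplet profile subtracted, 1.37 for cells taken by a limit of 3000 CPM on the erythroid markers, 1.40 at resolution 1.0, 1.35 with the libraries clustered separately, 1.43 without a UMI minimum, 1.48 at 1 depth, 1.46 without the 5% of cells with most globin, and 1.57 with the unnamed cluster added. The hbbe1.3 ratio lay between 0.679 and 0.862 in every alternative except cells with a hbbe1.3 share under 20%, where it was 1.2 and where the choice of cells itself uses the counts of this gene. Both that setting and the added cluster were chosen after seeing the data, as were limits of 15 and 25% and minimums of 15 and 60 UMIs for the hbbe1.3 ranges. Of these the limit of 25% moved the heterozygous share of cells most, to 43.2%. The alpha share in homozygous minus heterozygous cells was -0.23 percentage points and turned to 1.41 as a mean over cells and to 0.19 without the 5% of cells with most globin.

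The fold of RBC-like over other named classes became 95.6 in homozygous and 73.8 in heterozygous cells by the marker limit, 81.5 and 59.96 without a UMI minimum, and 13.9 and 28.1 with separate clustering, where 49 of the 101 homozygous and 216 of the 242 heterozygous unnamed cells joined other named classes. With the empty-droplet profile subtracted this fold has no value, since the other classes are then at 0 by construction. Of all genes, 685 were higher and 1228 lower by the limit used (35.8% of them higher). The counts were 1867 and 2697 with a minimum of 10 counts, 155 and 414 with 200, 348 and 706 at 1 depth, and 282 and 501 at 1.5-fold, and 49.3% were higher with median scaling. Of the 10 genes most like globin, 5 were shared over homozygous cells, 4 within heterozygous and 1 within homozygous RBC-like cells. The causes of these moves were not tested. No paired analysis was possible because each genotype has 1 library. hbbe1.2 and hbz, with 2104 and 1223 homozygous counts, are the members most limited by depth.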

Other observations

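In empty droplets the hbbe1.3 share of hbbe1.1 and hbbe1.3 counts was 4.48% (95% interval, 3.90 to 5.12) in the homozygous and 15.5% (14.5 to 16.7) in the heterozygous library, below the 11.6% and 23.2% of RBC-like cells. In the unnamed cluster it was 6.11% (5.40 to 6.89) in homozygous and 14.7% (13.6 to 15.8) in heterozygous cells. Free RNA, the unnamed cluster and the RBC-like cells thus each had the higher hbbe1.3 share in the heterozygous library.

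The 2 heterozygous cells outside the erythroid and unnamed clusters that had over 10000 CPM of globin were an EPC-like cell with 466 globin UMIs (30654 CPM) and an epidermis-like cell with 527 (25488 CPM). Without them the EPC-like level was 319 CPM and the epidermis-like level 503 CPM, close to the level of the other classes. In homozygous cells of named classes other than RBC-like the highest single cell was at 2021 CPM.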
